A study of Zanthoxylum armatum with 24 samples.

Results

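Salicylic acid (SA) and jasmonic acid (JA) signalling genes were followed through the floral differentiation of *Zanthoxylum armatum*, a woody spice plant of which the study sampled trees with male flowers and trees with female flowers. The group consisted of 7 of the 60592 genes listed, taken by gene ID from those that the study assigned to the hormone signal transduction pathway. The 5 SA genes were *ZaNPR3* (Zardc39292), *ZaBOP2* (Zardc03151), *ZaTGA8* (Zardc38825), *ZaPRB1* (Zardc49467) and *ZaCAPE3* (Zardc13708). The 2 JA genes were *ZaJAS1* (Zardc02254) and *ZaJAZ2* (Zardc00852). All 7 passed the filter on low values, at least 1 FPKM in at least 3 libraries. Floral buds were collected from male trees at the stages M1, M2, M3 and M4 and from female trees at F1, F2, F3 and F4. Stage 1 was the undifferentiated primordium, stage 2 the initiation of the primordia, stage 3 their differentiation and stage 4 the development and maturation of the flower. The study collected the stages at successive dates from September onwards, so stage and season cannot be told apart. Each replicate was a pool of buds from several trees of 1 sex, and the sources used here do not say whether replicates or stages shared trees. Buds differ in the tissues they hold from stage to stage, and in such bulk samples a smaller share of expressing cells and less RNA per cell cannot be told apart.

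Salicylic acid is perceived by proteins of the NPR family, which act with bZIP transcription factors of the TGA class on genes such as *PR-1*, a secreted defence protein that serves as the usual marker of the pathway. In the absence of jasmonate, JAZ proteins hold back MYC transcription factors. Jasmonoyl-isoleucine joins JAZ proteins to the receptor COI1 and leads to their breakdown, and JAZ genes are themselves induced by jasmonate. In *Arabidopsis*, jasmonate is needed for stamen maturation and pollen release, and in maize it is needed for the abortion of pistils in the tassel. The roles given below for single genes are those of the *Arabidopsis* genes after which the study named them.

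Levels were obtained for 23 libraries, 11 male and 12 female, with 3 libraries per group and 2 for M2. Values were FPKM, that is, read numbers scaled to the length of each gene and to the mapped reads of each library. Whole reads could be recovered from the steps of the FPKM values, and the libraries held 11962601 to 15027847 reads on genes. The stamen identity genes *ZaPI* and *ZaAP3*, 11 genes in all, summed to 162 to 184 FPKM in M4 and 13.2 to 15.9 FPKM in F4, and the 2 ovule genes *ZaSTK* to 0.0839 to 0.169 FPKM in M4 and 5.65 to 7.66 FPKM in F4. The stage 4 libraries thus matched the sex on their labels, although the study had picked these markers on the same samples. At stage 1 the stamen genes summed to 4.07 to 5.09 FPKM in M1 and 0.326 to 0.706 FPKM in F1. At stage 2 they summed to 7.39 to 7.78 FPKM in M2 and 0.207 to 0.531 FPKM in F2. The carpel and ovule genes *ZaSHP1* also reached 13.1 to 13.6 FPKM in M4, against 30.3 to 34.9 FPKM in F4. *ZaAG*, of stamens and carpels, was at 51.4 to 55.4 FPKM in M4 and 55.9 to 59.6 FPKM in F4. The ovule genes were at 0 in every M2, F1 and F3 library. The F3 libraries stood apart from the rest in that their 10 highest genes held 7.93 to 8.60% of all FPKM, against 3.57 to 6.12% in the other libraries. The lowest RNA integrity values listed by the study are those of F3 and F4, and the lowest shares of mapped reads are those of F3. Among the male groups, M3 was lowest in both.

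**Figure D1:**
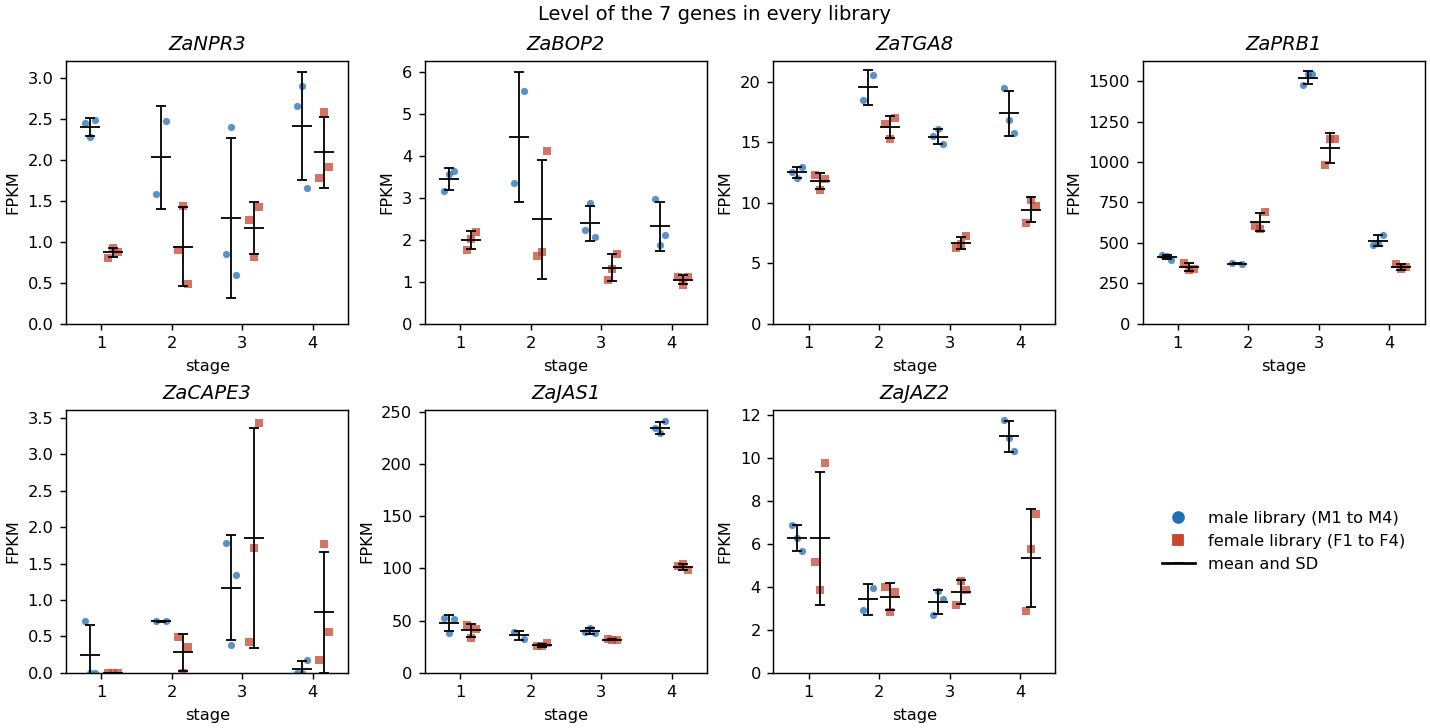
FPKM of each gene (vertical axes, each with its own range from 0) against stage (horizontal axes), with male libraries as circles left of female libraries as squares, and the mean and SD of each group in black (bars end at 0). *ZaPRB1* peaked at stage 3 in both sexes, *ZaJAS1* at stage 4 with M4 above F4, and *ZaTGA8* was lowest in F3.

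A gene was called in a comparison when the absolute log2 fold change, on the log2(FPKM + 1) scale, was at least 1 and the Benjamini-Hochberg adjusted p of limma, over all 38734 genes tested, was at most 0.05. Between male stages, 0 of the 7 genes were called in M2*vs.*M1 (4.92% of all genes tested), 1 in M3*vs.*M2 (2.52%), 1 in M3*vs.*M1 (6.22%) and 3 in M4*vs.*M3 (7.72%). Between female stages the numbers were 0 in F2*vs.*F1 (4.21%), 2 in F3*vs.*F2 (7.1%), 2 in F3*vs.*F1 (6.52%) and 2 in F4*vs.*F3 (7.66%). Between the sexes they were 0 in M1*vs.*F1 (3.93%), 0 in M2*vs.*F2 (4.83%), 1 in M3*vs.*F3 (6.01%) and 1 in M4*vs.*F4 (8.11%), and 0 for the male minus female difference averaged over the stages (2.86%). The genes had been chosen by the study because they were up-regulated on these same samples (in M3*vs.*M1, F3*vs.*F1, M4*vs.*M3 or a comparison of the sexes at stage 1, 3 or 4), so their calls there are no independent evidence of direction. The same holds for interactions of sex and stage that use these groups. Where no gene was called, limma gave an unadjusted p under 0.05 for 3 genes in M2*vs.*M1, 4 in F2*vs.*F1, 3 in M1*vs.*F1, 5 in M2*vs.*F2 and 5 in the average over stages. In the same order, the adjusted p alone was at most 0.05 for 2, 3, 3, 3 and 5 of the 7 genes. The corresponding shares of all genes tested were 29.8%, 30.1%, 32.1%, 21.9% and 52.3%. With limma voom on the recovered reads, 0 of the 7 genes were called in M2*vs.*M1 (8.07% of all genes tested), 0 in F2*vs.*F1 (7.26%), 1 in M1*vs.*F1 (7.78%), 1 in M2*vs.*F2 (7.9%) and 0 in the average (8.28%).

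*ZaPRB1*, a gene of the PR-1 family that the study placed under SA signalling and whose *Arabidopsis* namesake is known for responding to ethylene and methyl jasmonate, was by far the most abundant of the 7 genes and peaked at stage 3 in both sexes. In males it measured 424, 418 and 395 FPKM in M1, 372 and 368 FPKM in M2, 1475, 1545 and 1547 FPKM in M3, and 488, 499 and 552 FPKM in M4. In females it measured 376, 331 and 339 FPKM in F1, 607, 584 and 690.2 FPKM in F2, 983, 1141 and 1143 FPKM in F3, and 369, 336 and 349.9 FPKM in F4. Every stage 3 library lay above every library of the other stages, M3 lay wholly above F3, and F2 lay wholly above M2. The gene rose in M3*vs.*M2 by 2.04 ± 0.08 (log2, standard error; adjusted p = 1.35e-12, limma) and in M3*vs.*M1 by 1.88 ± 0.07 (adjusted p = 4.08e-14), and the M3 mean was 3.69 times the M1 mean. Females rose by 1.64 ± 0.07 in F3*vs.*F1 (adjusted p = 4.42e-13), reached in a pair of steps that each stayed under the fold threshold, 0.84 ± 0.07 in F2*vs.*F1 (adjusted p = 1.13e-08) and 0.80 ± 0.07 in F3*vs.*F2 (adjusted p = 1.55e-08). After stage 3 the gene fell in both sexes, by 1.57 ± 0.07 in M4*vs.*M3 (adjusted p = 3.89e-13) and by 1.63 ± 0.07 in F4*vs.*F3 (adjusted p = 3.07e-13). The part of the lower shares of mapped reads at stage 3 in this peak was not tested.

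The rise of *ZaPRB1* thus differed in its timing between the sexes, and this difference was tested as an interaction of sex and stage. The change between stages 2 and 3 was larger in males than in females by 1.24 ± 0.11 (log2, adjusted p = 5.84e-08, limma), where 5.08% of all genes tested were called. This interaction and that between stages 1 and 2 both use M2 and F2, with opposite sign, so they are not independent of each other. The change between stages 1 and 2 was smaller in males, at -1.0 ± 0.11 (adjusted p = 1.62e-06, limma). It lay just under the fold threshold before rounding, and 0 of the 7 genes were called there (3.18% of all genes tested). By the unadjusted p 1 gene, *ZaPRB1*, was under 0.05 there, and 15.3% of all genes tested passed the adjusted p alone. By voom 0 of the 7 genes were called (4.15% of all genes tested). The *ZaPRB1* difference passed the threshold when any 1 of 5 libraries was left out. It was -1.03 without M1 replicate 3, -1.01 without M2 replicate 1 and -1.05 without F1 replicate 1. Without F2 replicate 1 it was -1.02, and without F2 replicate 2 it was -1.05. It also passed with median centring (-1.04) and, narrowly, with pseudocounts of 0.1 (-1.002) and 0.5 (-1.001), but not with quantile normalization. At the single stages the male minus female difference was 0.24 ± 0.07 at stage 1, -0.76 ± 0.08 at stage 2, 0.49 ± 0.07 at stage 3 and 0.54 ± 0.07 at stage 4. All 4 had an adjusted p of at most 0.05 and no overlap of libraries, and none reached the fold threshold. Averaged over the stages, the differences of opposite sign left 0.13 ± 0.04 (adjusted p = 0.00532).

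**Figure D2:**
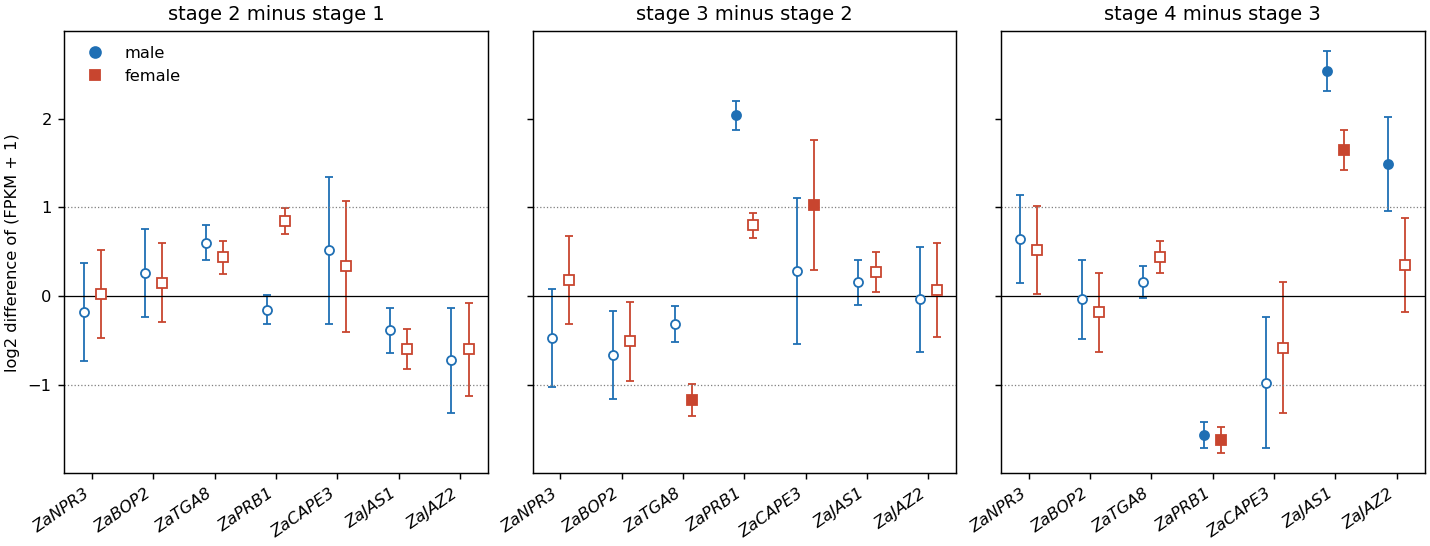
Log2 difference of (FPKM + 1) between neighbouring stages, later minus earlier, for the 7 genes, with male circles left of female squares, 95% confidence intervals as bars, filled symbols for called differences and dotted lines at the fold threshold. *ZaPRB1* gained 2.04 in males between stages 2 and 3 where females gained 0.80, and it then fell by 1.57 in males and by 1.63 in females.

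A further gene that the study named *ZaPRB1* carried an ID that the authors added from their reads, and it ran in another direction. It measured 10.1, 9.63 and 9.60 FPKM in M1, 7.40 and 9.95 FPKM in M2, 2.73, 5.10 and 4.57 FPKM in M3, and 0.999, 1.42 and 1.31 FPKM in M4. In females it measured 0.469, 0.11 and 0.758 FPKM in F1, 0, 1.07 and 0.330 FPKM in F2, 0.526, 0.476 and 1.01 FPKM in F3, and 0.766, 0.997 and 0.579 FPKM in F4. Each male group lay above the female group of its stage, though narrowly at stage 4, and the levels were highest in M1 and M2, the male stages at which the abundant *ZaPRB1* was lowest. Higher levels in males were called in M1*vs.*F1 (2.92 ± 0.24, adjusted p = 1.59e-08, limma), M2*vs.*F2 (2.78 ± 0.26, adjusted p = 1.98e-07) and M3*vs.*F3 (1.60 ± 0.24, adjusted p = 2.22e-05), and averaged over the stages (1.91 ± 0.12, adjusted p = 1.14e-10). The gene passed the filter on low values chiefly through its male libraries, and F1 held 12 reads in all. In males it fell by 1.10 ± 0.24 in M3*vs.*M1 (adjusted p = 0.000849) and by 1.17 ± 0.24 in M4*vs.*M3 (adjusted p = 0.000468), the first of which ended under the fold threshold at -0.89 without M3 replicate 1 and above an adjusted p of 0.05 with a pseudocount of 0.1. The sources used here do not say whether the counting kept reads of both *ZaPRB1* genes apart, so the level of the weaker one is uncertain.

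*ZaCAPE3*, another gene of the PR-1 family, was barely expressed. Its mean over the 23 libraries was 0.639 FPKM, against 667 FPKM for *ZaPRB1*, and it rested on 78 reads in all. In males it measured 0.716, 0 and 0 FPKM in M1, 0.705 and 0.713 FPKM in M2, 1.78, 0.378 and 1.34 FPKM in M3, and 0, 0 and 0.173 FPKM in M4. In females it was at 0 in all F1 libraries and measured 0.491, 0 and 0.351 FPKM in F2, 0.419, 1.71 and 3.43 FPKM in F3, and 0.174, 1.77 and 0.554 FPKM in F4. Stage 3 had the highest mean in both sexes, as for *ZaPRB1*, and the gene passed the filter mostly through its stage 3 libraries. The F3 libraries held 28 reads (exact Poisson 95% interval 18.6 to 40.5) and the F1 libraries 0 (0 to 3.69). With F1 set at 3 reads, the F3 count was 10.5-fold higher per unit of depth. This value leaves out the counting error of F3 and is no lower bound. Of the 28 reads 17 came from F3 replicate 3, and without it the value was 6.15-fold, from 11 reads. Limma called the gene in F3*vs.*F1 (1.36 ± 0.35, adjusted p = 0.00392) and, although the libraries overlapped, in F3*vs.*F2 (1.03 ± 0.35, adjusted p = 0.0242). Without F3 replicate 3 these values were 0.97 and 0.63 and neither was called, and F3*vs.*F2 was also lost without F2 replicate 2 (0.86) or F3 replicate 2 (0.99). M3 held 18 reads and M4 held 1, a difference of -0.98 ± 0.35 in M4*vs.*M3 (adjusted p = 0.0332) that missed the fold threshold and passed it at -1.28 without M3 replicate 2, as well as with the pseudocounts of 0.1 and 0.5 and with voom.

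*ZaNPR3*, a receptor of salicylic acid that represses defence genes, was weakly expressed and rested on 14 to 85 reads per library. Its levels were 2.45, 2.28 and 2.49 FPKM in M1, 1.59 and 2.48 FPKM in M2, 0.854, 2.41 and 0.601 FPKM in M3, and 2.67, 2.91 and 1.67 FPKM in M4. In females they were 0.806, 0.927 and 0.879 FPKM in F1, 0.897, 1.44 and 0.482 FPKM in F2, 1.27, 0.818 and 1.42 FPKM in F3, and 1.78, 2.60 and 1.92 FPKM in F4. M1 lay wholly above F1 and M2 above F2, whereas at stages 3 and 4 the sexes overlapped, and the M3 libraries differed among themselves by more than the group means did. The difference in M1*vs.*F1 was 0.87 ± 0.24 (log2, adjusted p = 0.00852, limma), under the fold threshold, and averaged over the stages it was 0.41 ± 0.12 (adjusted p = 0.00776). The pseudocount of 1 pulls such low values together. With a pseudocount of 0.5 the difference in M1*vs.*F1 was 1.09, and with voom on the recovered reads, an alternative chosen after seeing the data, it was 1.44, and both passed the thresholds. Voom also called M2*vs.*F2, at 1.24, where the difference by limma was 0.66 ± 0.27 (adjusted p = 0.0852). Over the 17 comparisons, limma called *ZaNPR3* in 0 (an unadjusted p under 0.05 in 7) and voom in 4. M3 was lower than M1 by 0.66 ± 0.24 (adjusted p = 0.0336) and M4 higher than M3 by 0.64 ± 0.24 (adjusted p = 0.0386), with overlap in both. These 2 differences were called by voom, at -1.09 (10.6% of all genes tested) and 1.11 (11.8%), and with a pseudocount of 0.1.

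*ZaBOP2* belongs to the same protein family as NPR3 and is known for patterning leaves and floral organs, together with the TGA factor PERIANTHIA. It measured 3.16, 3.57 and 3.64 FPKM in M1, 3.35 and 5.56 FPKM in M2, 2.24, 2.87 and 2.06 FPKM in M3, and 2.98, 1.88 and 2.10 FPKM in M4. The female values were 1.75, 2.03 and 2.19 FPKM in F1, 1.62, 1.72 and 4.11 FPKM in F2, 1.04, 1.31 and 1.67 FPKM in F3, and 1.11, 0.925 and 1.12 FPKM in F4. Males lay wholly above females at stages 1, 3 and 4, and at stage 2 a single F2 library at 4.11 FPKM overlapped them. The gene was called in 0 of the 17 comparisons by limma (an unadjusted p under 0.05 in 7 of them) and in 1 by voom. Its difference between the sexes was of similar size at the 4 stages, at 0.58 ± 0.21 in M1*vs.*F1, 0.69 ± 0.24 in M2*vs.*F2 and 0.68 ± 0.21 in M4*vs.*F4 (adjusted p = 0.0443, 0.0441 and 0.0134, limma) and 0.54 ± 0.21 in M3*vs.*F3 (adjusted p = 0.0505). Averaged over the stages it was 0.62 ± 0.11 (adjusted p = 8.96e-05), the largest averaged difference among the 7 genes. In M4*vs.*F4 it passed the thresholds with a pseudocount of 0.1 (1.05) and with voom (1.12, where 14.1% of all genes tested were called).

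*ZaTGA8*, named after the bZIP factor TGA8, which is PERIANTHIA in *Arabidopsis* and is known there for setting the number of floral organs, showed its largest difference between the sexes at stage 3. It measured 12.6, 12.1 and 12.9 FPKM in M1, 18.5 and 20.6 FPKM in M2, 15.5, 16.1 and 14.8 FPKM in M3, and 19.5, 16.9 and 15.8 FPKM in M4. In females it measured 12.3, 11 and 12 FPKM in F1, 16.5, 15.3 and 17.0 FPKM in F2, 6.22, 6.62 and 7.22 FPKM in F3, and 8.33, 10.3 and 9.72 FPKM in F4. The sexes overlapped at stage 1, and F3 lay below every other library. The gene fell by 1.17 ± 0.09 in F3*vs.*F2 (adjusted p = 1.21e-09, limma), whereas M3 was lower than M2 by 0.32 ± 0.10 (adjusted p = 0.0271), under the fold threshold. The change between these stages, male minus female, was 0.85 ± 0.13 (adjusted p = 8.79e-05), also under it. M3 was higher than F3 by 1.10 ± 0.09 (adjusted p = 7.55e-09), and the mean in M3 was 2.32 times that in F3. Stage 4 showed a male minus female difference of 0.82 ± 0.09 (adjusted p = 2.72e-07), and the average over stages was 0.56 ± 0.05 (adjusted p = 2.88e-09), both under the fold threshold. After quantile normalization the differences were -1.17 in F3*vs.*F2 and 1.08 in M3*vs.*F3, and after median centring -1.18 and 1.08, and all 4 were called. When the fold threshold itself was tested, neither F3*vs.*F2 nor M3*vs.*F3 was called. The parts of the high share of FPKM in the top genes of F3 and of the lower RNA integrity of F3 and F4 in these differences were not tested.

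Both sexes had more *ZaTGA8* at stage 2 than at stage 1, without reaching the fold threshold, by 0.60 ± 0.10 in M2*vs.*M1 (adjusted p = 7.14e-05, limma) and by 0.43 ± 0.09 in F2*vs.*F1 (adjusted p = 0.000613). Against stage 1, the stage 3 libraries of the sexes then parted, with 0.29 ± 0.09 in M3*vs.*M1 (adjusted p = 0.0123) and -0.73 ± 0.09 in F3*vs.*F1 (adjusted p = 1.02e-06). The difference between these changes, male minus female, was 1.02 ± 0.12 (adjusted p = 1.45e-05) and was called, where 2.98% of all genes tested were called. Its size sat on the fold threshold, and the call was lost at 0.99 without M1 replicate 2, M3 replicate 2 or F1 replicate 1, at 0.98 without F3 replicate 1, and at 0.99 under both quantile normalization and median centring. The summed stamen identity genes were 28.9 to 40.0 FPKM in M3 and 2.91 to 3.96 FPKM in F3, and their part in the difference was not tested.

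**Figure D3:**
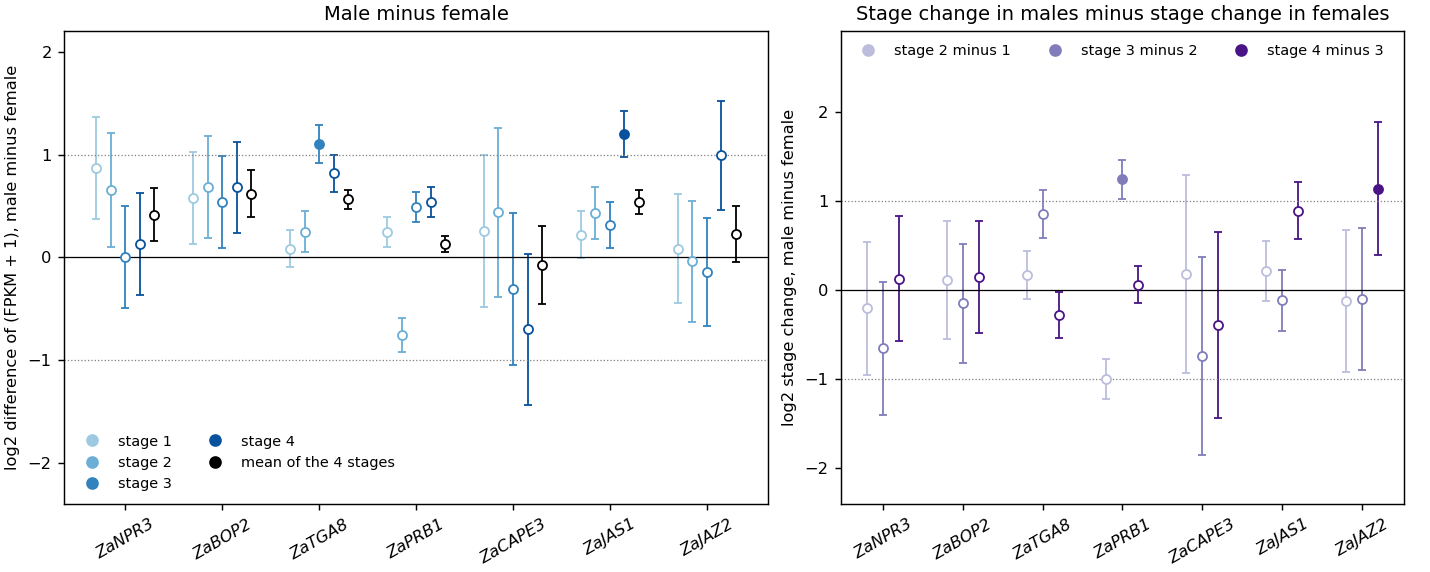
Left, log2 difference of (FPKM + 1), male minus female, of the 7 genes at each stage and averaged over the stages. Right, the same scale for the change between neighbouring stages in males minus that in females, with 95% confidence intervals as bars, filled symbols for called differences and dotted lines at the fold threshold in both panels. *ZaBOP2* was offset by a similar amount at all stages, *ZaPRB1* changed sign at stage 2, and the differences of *ZaJAS1* and *ZaJAZ2* were largest at stage 4.

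*ZaJAS1*, the homologue of *JAZ10*, a JAZ repressor that is itself rapidly induced by jasmonate, stayed between 25.2 and 52.5 FPKM through stages 1 to 3 and rose at stage 4 in both sexes. It measured 52.5, 38.4 and 51.1 FPKM in M1, 38.8 and 32.7 FPKM in M2, 38.8, 42.9 and 37.6 FPKM in M3, and 234, 229 and 241 FPKM in M4. The females measured 46.0, 33.1 and 42.3 FPKM in F1, 25.2, 25.2 and 28.2 FPKM in F2, 32.6, 31.1 and 31.5 FPKM in F3, and 102, 104 and 98.6 FPKM in F4. All stage 4 libraries lay above all earlier ones, and the M4 libraries were clear of the F4 libraries. The rise was 2.53 ± 0.11 in M4*vs.*M3 (log2, adjusted p = 2.06e-13, limma) and 1.65 ± 0.11 in F4*vs.*F3 (adjusted p = 1.80e-10), or 5.90 and 3.20 times in mean FPKM. M4 was higher than F4 by 1.20 ± 0.11 (adjusted p = 3.10e-08), and the mean in M4 was 2.31 times that in F4. The change between stages 3 and 4 was larger in males by 0.89 ± 0.15 (adjusted p = 0.000247), which missed the fold threshold and passed it under quantile normalization (1.02). The stamen identity genes reached the sums given above in M4 and F4, and their part in this difference was not tested.

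Before stage 4, the differences of *ZaJAS1* were small. Stage 2 lay below stage 1 by 0.39 ± 0.12 in males (adjusted p = 0.0200, limma) and by 0.60 ± 0.11 in females (adjusted p = 0.000233), and M2 exceeded F2 by 0.43 ± 0.12 (adjusted p = 0.0139) and M3 exceeded F3 by 0.32 ± 0.11 (adjusted p = 0.0257). Averaged over the stages, males were higher by 0.54 ± 0.06 (adjusted p = 1.17e-07). None of these reached the fold threshold.

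*ZaJAZ2*, another JAZ repressor, was weaker and showed a rise at stage 4 that was called in males only. Its levels were 6.89, 6.29 and 5.65 FPKM in M1, 2.91 and 3.92 FPKM in M2, 2.67, 3.78 and 3.45 FPKM in M3, and 11.8, 10.9 and 10.3 FPKM in M4. In females they were 5.15, 3.85 and 9.75 FPKM in F1, 4.01, 2.84 and 3.78 FPKM in F2, 3.14, 4.27 and 3.83 FPKM in F3, and 2.88, 5.74 and 7.39 FPKM in F4. M4 lay above every other library of the series, whereas F4 overlapped F3 and the F1 and F4 libraries were widely spread. The gene rose by 1.49 ± 0.25 in M4*vs.*M3 (log2, adjusted p = 7.75e-05, limma), a call that was lost when the fold threshold itself was tested, and M3 was lower than M1 by 0.76 ± 0.25 (adjusted p = 0.0209), under the fold threshold. The change between stages 3 and 4 was larger in males by 1.14 ± 0.36 (adjusted p = 0.0288), and it was called where 5.44% of all genes tested were. Leaving out M3 replicate 1 (1.03), M4 replicate 1 (1.09), M4 replicate 2 (1.14), F3 replicate 2 (1.06) or F4 replicate 1 (0.82) raised its adjusted p above 0.05. M4 exceeded F4 by 0.99 ± 0.25 (adjusted p = 0.00344), just under the fold threshold. It passed without M4 replicate 3 (1.03), F4 replicate 2 (1.07) or F4 replicate 3 (1.23), with a pseudocount of 0.5 (1.06) and with voom (1.17).

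**Figure D4:**
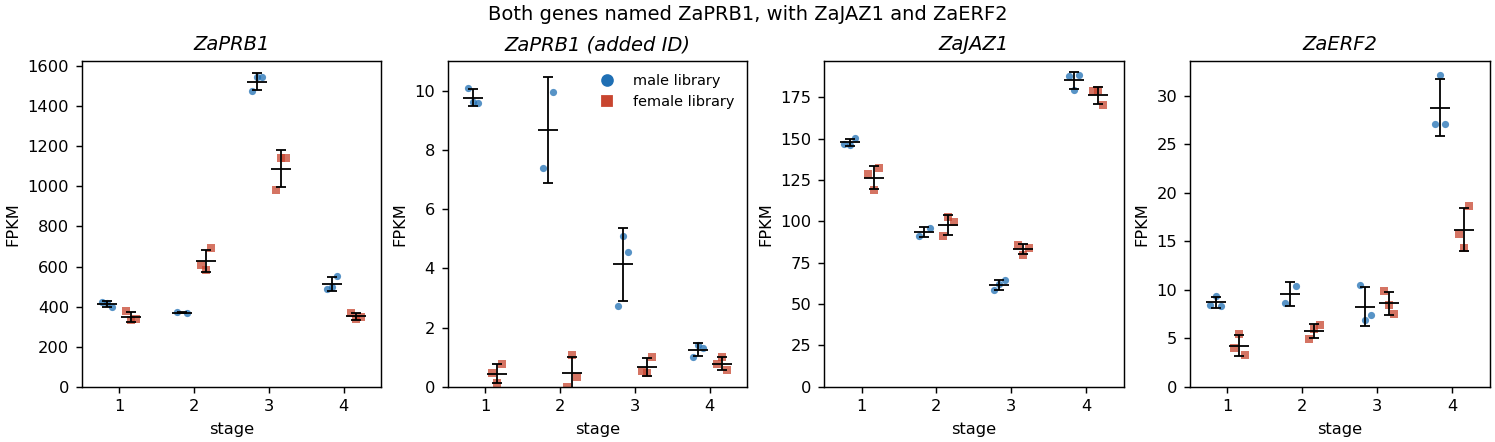
FPKM (vertical axes, each with its own range from 0) against stage (horizontal axes) for the abundant *ZaPRB1*, the *ZaPRB1* gene with an added ID, *ZaJAZ1* and *ZaERF2*, with male circles left of female squares and the mean and SD of each group in black. The abundant *ZaPRB1* was highest in M3 (mean 1522 FPKM), whereas the gene with an added ID was highest in M1 (mean 9.77 FPKM).

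Among the genes that the study placed in hormone signal transduction, 3 others were followed as well. They were the *ZaPRB1* gene described above, *ZaJAZ1* (Zardc06900), a further JAZ repressor, and *ZaERF2* (Zardc26876). The last is a transcription factor of the AP2/ERF family that responds to ethylene and jasmonate. Of these 3 genes, 2 were called higher and 1 lower in M4*vs.*M3 (7.72% of all genes tested were called), and 1 higher in F4*vs.*F3 (7.66%). In M3*vs.*M1 2 were lower (6.22%). In males 1 was higher at each of stages 1, 2 and 3 (3.93%, 4.83% and 6.01%) and averaged over the stages (2.86%). The *ZaPRB1* gene with an added ID had negative interactions called for stages 2 to 3 (5.08%), 1 to 3 (2.98%) and 3 to 4 (5.44%). Each was lost with a pseudocount of 0.1 and with voom.

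*ZaJAZ1* averaged 148 ± 2.04 FPKM in M1, 93.6 ± 3.06 FPKM in M2, 61.7 ± 3.03 FPKM in M3 and 185 ± 5.09 FPKM in M4 (SD, n = 3, M2 n = 2). In females it averaged 126 ± 7.08 FPKM in F1, 97.8 ± 5.87 FPKM in F2, 83.2 ± 3.23 FPKM in F3 and 176 ± 5.30 FPKM in F4 (SD, n = 3). The gene declined up to stage 3 in both sexes and was highest at stage 4. The fall in M3*vs.*M1 was 1.25 ± 0.05 (adjusted p = 2.21e-13, limma), and the rise was 1.57 ± 0.05 in M4*vs.*M3 (adjusted p = 3.73e-15) and 1.07 ± 0.05 in F4*vs.*F3 (adjusted p = 1.61e-12), the last of which was 0.97 under quantile normalization. At stage 4 the sexes overlapped for *ZaJAZ1*, unlike for *ZaJAS1* and *ZaJAZ2*, and at stage 3 M3 was lower than F3 by 0.42 ± 0.05 (adjusted p = 2.36e-06), under the fold threshold.

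*ZaERF2* averaged 8.70 ± 0.607 FPKM in M1, 9.56 ± 1.24 FPKM in M2, 8.25 ± 1.99 FPKM in M3 and 28.8 ± 2.91 FPKM in M4, and 4.25 ± 1.05 FPKM in F1, 5.75 ± 0.747 FPKM in F2, 8.59 ± 1.20 FPKM in F3 and 16.2 ± 2.22 FPKM in F4 (SD, n = 3, M2 n = 2). It rose by 1.70 ± 0.16 in M4*vs.*M3 (adjusted p = 2.39e-08, limma), while F4 was higher than F3 by 0.84 ± 0.16 (adjusted p = 0.000184), under the fold threshold. The difference between these changes, male minus female, was 0.86 ± 0.22 (adjusted p = 0.00783), under the fold threshold, and it passed at 1.03 without M3 replicate 1. M4 exceeded F4 by 0.79 ± 0.16 (adjusted p = 0.000354), also under the fold threshold. At stage 1 the gene was higher in M1 than in F1 by 0.90 ± 0.16 (adjusted p = 0.000170), under the fold threshold, and it passed with a pseudocount of 0.1 (1.04), with voom (1.04) and without F1 replicate 2 (1.05). Against stage 1, the change at stage 3 was smaller in males than in females, with a male minus female difference of -0.97 ± 0.22 (adjusted p = 0.00510), again under the fold threshold. This passed with pseudocounts of 0.5 (-1.04) and 0.1 (-1.12), under quantile normalization, with voom (-1.06, where 4.3% of all genes tested were called), and without M3 replicate 1 (-1.14), F1 replicate 2 (-1.12) or F3 replicate 3 (-1.06).

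The order of the group means differed among the 7 genes. *ZaPRB1* was ordered M3, F3, F2, M4, M1, M2, F4 and F1, where only M2, F4 and F1 overlapped their neighbours. *ZaJAS1* led with M4 and F4, each clear of the next group, while its other groups lay between 26.2 and 47.3 FPKM in their means. For *ZaTGA8* the lowest places went to F1, F4 and F3, which did not overlap one another. In *ZaNPR3* every group overlapped its neighbour in the order, from M4 (2.41 ± 0.660 FPKM, SD, n = 3) down to F1 (0.871 ± 0.0606 FPKM, SD, n = 3), and in *ZaBOP2* only F1 and F3 did not. *ZaJAZ2* had M4 alone clear of its neighbour.

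The spread between libraries was set beside the error of counting reads. The median over groups of the coefficient of variation between libraries was 27.1% for *ZaNPR3*, 20.6% for *ZaBOP2* and 17.4% for *ZaJAZ2*, and counting alone would give 15.1%, 14.7% and 14.3%. For *ZaPRB1* the spread was 5.72% and counting error 1.88%, and for *ZaJAS1* 6.77% and 5.74%. These errors cover counting only and treat reads as independent molecules.

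The genes most alike in pattern were sought among 118 other tested genes that the study names, by Pearson's r of log2(FPKM + 1) over the 23 libraries. The libraries fall into 8 groups and share their stages, so r is given as a description. Among all 38734 genes tested, between 31 and 798 were at least as alike to a member as each gene named here. *ZaJAS1* was most like *ZaTPPF* (r = 0.91, but rank 10 by Spearman's rho) and *ZaBAM1* (r = 0.90), both of starch and sucrose metabolism, and *ZaJAZ2* was most like *ZaJAS1* (r = 0.73, rank 4 by Spearman's rho) and *ZaJAZ1* (r = 0.72). *ZaTGA8* was most like the cytokinin receptor gene *ZaAHK4* (r = 0.89) and *ZaSUS2* (r = 0.82), a sucrose synthase gene. For *ZaBOP2* these were *ZaGH3.3* (r = 0.72, rank 6 by Spearman's rho) and *ZaUGT85A4* (r = 0.71), and for *ZaNPR3* they were *ZaTPPD* (r = 0.64) and *ZaBE1* (r = 0.63). *ZaPRB1* was most like *ZaGH3.1* (r = 0.69, but Spearman's rho = 0.28 and rank 26) and *ZaAHG3* (r = 0.66, rank 3). *ZaCAPE3* was most like *ZaSAUR32* (r = 0.71) and *ZaLAX3* (r = 0.67, rank 3 by Spearman's rho), with few reads behind it. Within the group of 7, the next highest values after *ZaJAS1* with *ZaJAZ2* were those of *ZaBOP2* with *ZaTGA8* (r = 0.68) and of *ZaNPR3* with *ZaJAS1* (r = 0.56), and *ZaPRB1* with *ZaTGA8* gave r = -0.12.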

How the data were processed

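Total RNA of male and female floral buds was sequenced at 4 stages per sex. Reads were mapped by the authors to the published *Z. armatum* genome and counted per gene with HTSeq, and the values were deposited as FPKM. The submitters' processing notes also name Bowtie 0.12.2 and the genome build mm8, a mouse build, and no coordinates were used. M2 replicate 3 was left out, since its deposited values cover 183 genes, of which 182 equal M3 replicate 1. Whole reads were recovered from the deposited FPKM for all 50500 genes above 0 (100% of values within 0.01 of a whole read). Genes reaching 1 FPKM in 3 or more libraries were tested as log2(FPKM + 1) with limma 3.58.1 (R 4.3.3), trended prior, all 8 groups in 1 fit. P-values were adjusted by Benjamini-Hochberg within each of 17 contrasts: 12 of the study, the sex difference averaged over stages and 4 interactions. Labels name 3 replicates per group and no batch. P-values measure only the spread between these libraries. Calls were tested on simulated data, in M3*vs.*F3 only and with changes above the fold threshold only. Smaller changes and the other contrasts were not covered.

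The genes named are the 7 members, 3 further hormone signalling genes and the 2 most alike genes of each member. Members and lists were chosen with earlier results of these data known. As alternatives, calls were made on the unadjusted p or with limma's test of the fold threshold, with pseudocounts of 0.1 and 0.5, without the filter, after quantile normalization or median centring, from the compared groups alone, with a replicate block, and without each library in turn, and Spearman's rho was used for likeness. Voom on the recovered reads was added after seeing the data. No sequences are shown. Python 3.11.15 with matplotlib 3.10.9 drew the figures, and pandas 2.3.3 and numpy 2.4.6 handled the tables.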

Additional observations from a re-analysis of the deposited data

Results flagged for a closer look

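The interaction of sex and stage passed both thresholds in limma for 3 of the 7 genes, in 1 comparison each. These interactions use groups on which the study had chosen the genes, so they are no independent evidence of direction. *ZaPRB1* changed more in males than in females between stages 2 and 3, by 1.24 on the log2 scale (5.08% of all genes tested were called). Against stage 1, *ZaTGA8* at stage 3 differed between the sexes by 1.02 (2.98% called), with M3 at 14.8 to 16.1 FPKM and F3 at 6.22 to 7.22 FPKM. *ZaJAZ2* changed more in males between stages 3 and 4, by 1.14 (5.44% called), and the F4 libraries ranged from 2.88 to 7.39 FPKM. By limma's test against the fold threshold, 0 of these were called, and 1 had an unadjusted p under 0.05. *ZaJAS1* between stages 3 and 4 had an adjusted p of 0.000247 in limma with a difference of 0.89, under the fold threshold.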

How the results depend on the processing

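Of 86 gene comparisons with an adjusted p of at most 0.05, over the 7 genes and the 3 others, 57 kept their direction and their side of the thresholds under all 33 alternatives, and none changed sign. The unadjusted p could change none of the 86, since all had passed the adjusted p. Most fits without 1 library also left a comparison of 2 groups with all its own libraries. Of the 29 comparisons called, 13 were called under every alternative. Calls of the 7 genes numbered 5 of 28 between male stages and 6 of 28 between female stages. They numbered 2 of 35 between the sexes and 3 of 28 in the interactions. In the same order, 5.35%, 6.37%, 5.15% and 4.17% of all gene comparisons were called. When the fold threshold itself was tested (limma's treat), the numbers were 4 between male stages (1.75% of all gene comparisons), 3 between female stages (1.9%), 0 between the sexes (1.19%) and 0 in the interactions (0.489%), while an unadjusted p under 0.05 in that test was reached by 1 between the sexes and 1 in the interactions. *ZaJAZ2* in M4*vs.*M3 was among the calls lost. A pseudocount of 0.1 gave 9 between male stages (8.62%) and 6 between the sexes (9.62%), a pseudocount of 0.5 gave 4 between the sexes (7.45%), and voom gave 8 (8.7%) and 6 (9.85%), so that calls over all genes rose as well. Leaving out 1 library gave 5 to 7 between male stages, 4 to 7 between female stages, 2 to 3 between the sexes and 2 to 4 in the interactions. Shares of all gene comparisons are not given for these fits, so their counts have no background beside them. With the replicate number as a block (replicate block) the numbers were 5 (5.33% of all gene comparisons), 6 (6.37%), 2 (5.15%) and 3 (4.14%). Deviations of same-numbered libraries from their group means were hardly correlated, between -0.0782 and 0.0905 over 33 pairs. These pairs reuse libraries, and the values do not tell whether replicates shared trees. *ZaCAPE3* in F3*vs.*F2 lost its call with only the groups compared (1.03) and, by the fold threshold, under quantile normalization. Depth limits precision, and counting error alone was a median of 15.1% for *ZaNPR3* and 14.7% for *ZaBOP2*, while *ZaCAPE3* rested on 78 reads.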
